A study of Mus musculus with 20 samples.

Results

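Krt7, Krt8, Krt18 and Krt19 encode the keratins of simple, single-layered epithelia and were followed as the keratins of the trophectoderm, the outer epithelium of the blastocyst. All probe sets that the platform annotation gives to 1 of these 4 symbols were taken, which gave 4 of the 18193 genes named on the array and 6 of its 45037 probe sets that are not controls. Krt7 had the probe set 1423952_a_at, Krt18 had 1448169_at, Krt19 had 1417156_at, and Krt8 had the 3 probe sets 1420647_a_at, 1423691_x_at and 1435989_x_at. RNA was hybridised to 1-colour Affymetrix arrays (MOE430 2.0) to ask whether taking a blastomere from the embryo, or a step on the way to it, alters transcripts later. The 20 arrays carried 20 pools of 20 CF1 mouse embryos each, handled at the 8-cell stage and collected as blastocysts 96 h after hCG, and formed 5 groups of 4 pools. In the biopsy group the embryos were exposed to medium without calcium and magnesium, their zona pellucida was opened with acid Tyrode's solution and a blastomere was removed. The CMF_acid group had both exposures with no removal, the CMF group only the medium without calcium and magnesium, the acid group only acid Tyrode's solution, and the untreated group neither. The pools in every group are numbered 2 to 5 in the labels, which do not say what a number stands for or which pools shared a day. The p-values therefore measure the spread between these pools, which may be technical in part.

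Keratins assemble into intermediate filaments only as pairs of a type II and a type I chain. Krt7 and Krt8 are type II chains and Krt18 and Krt19 are type I chains, and Krt8 with Krt18 is the first keratin pair that the mouse embryo makes. In the blastocyst their filaments run through the trophectoderm and attach to desmosomes, while the inner cell mass largely lacks them, and antibodies to Krt8 are in common use to mark the trophectoderm.

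Krt7, Krt8 and Krt18 lie on mouse chromosome 15 (build GRCm38.p6, gene positions and sequences from RefSeq), and Krt19 lies on chromosome 11 at chr11:100140810-100145926. Krt8 lies at chr15:101996711-102004342 on the minus strand and Krt18 at chr15:102028216-102032026 on the plus strand, so that their transcription starts face away from each other. Between them are 23873 bases with 2 annotated genes, of which 0 are protein-coding. Krt7, at chr15:101412403-101427806 on the plus strand, ends 568904 bases before Krt8. The 250 bases upstream of the start are shown for these 3 neighbours because the levels of Krt8 and Krt18 are compared array by array further on, with the matches to searched motifs in capitals.
Krt8, chr15:102004343-102004592, minus strand: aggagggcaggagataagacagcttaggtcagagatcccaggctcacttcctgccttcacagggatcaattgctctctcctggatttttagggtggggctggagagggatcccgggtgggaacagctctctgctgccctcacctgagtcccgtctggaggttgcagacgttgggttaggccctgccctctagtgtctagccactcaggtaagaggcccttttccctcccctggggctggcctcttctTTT
Krt18, chr15:102027966-102028215, plus strand: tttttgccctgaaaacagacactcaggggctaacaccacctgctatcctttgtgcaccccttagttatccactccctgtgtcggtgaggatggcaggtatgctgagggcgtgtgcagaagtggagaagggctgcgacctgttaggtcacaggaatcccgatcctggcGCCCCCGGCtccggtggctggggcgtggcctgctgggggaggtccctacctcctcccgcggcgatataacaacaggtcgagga
Krt7, chr15:101412153-101412402, plus strand: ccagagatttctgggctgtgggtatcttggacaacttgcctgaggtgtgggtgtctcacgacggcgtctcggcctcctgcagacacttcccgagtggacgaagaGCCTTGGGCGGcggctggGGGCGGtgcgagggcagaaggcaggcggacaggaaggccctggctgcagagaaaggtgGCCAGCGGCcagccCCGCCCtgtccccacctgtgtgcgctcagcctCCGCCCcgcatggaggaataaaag
The motifs searched, on both strands and over these bases plus 50 after the start, were GCCNNNGGC (the letters bound by AP-2 factors), GGAATG (TEAD factors), GGGCGG (Sp1), TGANTCA (AP-1) and TATAAA (the TATA box). Krt18 held 1 match to the AP-2 letters, at -83 to -75 from the start, and Krt7 held 2, at -146 to -138 and -70 to -62. Krt7 also held 4 matches to the Sp1 letters, the first of which overlaps an AP-2 match. Krt8 held 2 overlapping matches to the TATA letters that run across the annotated start, from -3 to 3 and from -1 to 5, of which only the first 3 letters fall in the printed stretch. None of the 3 windows held the TEAD or the AP-1 letters. Of 32851 promoter windows of this length, 16.6% held the AP-2 letters, 35.7% the Sp1 letters, 13.6% the TATA letters, 14.7% the TEAD letters and 7.81% the AP-1 letters. The matches describe these letters only.

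The blastocyst pools held transcripts from the marker lists of every blastocyst lineage. Of 20 listed regulators of the trophectoderm, 19 were tested and 16 were called Present on all 20 arrays, and of 22 listed markers of the inner cell mass and epiblast, 19 were tested and 17 were called Present on all 20. Of 23 listed markers of the primitive endoderm, 21 were tested and 13 were Present on all 20. A Present call can come at a low intensity, as for the regulator Hand1, Present on all 20 arrays at a mean log2 of 3.49 in untreated embryos. Of 17 markers of cumulus and granulosa cells, the maternal cells that surround the oocyte, 6 were tested and 4 were Present on all 20 arrays, while Fshr and Cyp19a1, the follicle-stimulating hormone receptor and aromatase, were among those not tested. Per array, 44.3% to 50.9% of probe sets were called Present, and the ratio of 3 prime to 5 prime signal, a measure of RNA integrity and of the length of the amplified copies, was 1.51 to 4.22 for actin and 3.08 to 4.30 for Gapdh. CMF_acid replicate 5 stood apart, with the lowest share of Present calls and the actin ratio of 4.22. Its mean correlation with the other arrays was 0.991, against 0.996 or more for the rest. Several differences of the CMF_acid group from others are therefore given without it as well.

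Krt8, Krt18 and Krt7 were called Present on all 20 arrays, in every group. Krt19 was called Present on 3 of 20 arrays, namely biopsy replicate 2, CMF_acid replicate 3 and CMF replicate 4, and on 0 of the 4 arrays of the acid and of the untreated group. For Krt19 the label of a trophectoderm keratin therefore goes against these arrays, whose probe set was mostly not called detected. All 6 probe sets passed the filter for testing, a Present call on 3 or more of the 20 arrays, Krt19 only just. Of the 44 other keratin genes on the array, with 55 probe sets, 32 had no Present call on any array. Another 5 (Krt4, Krt5, Krt6a, Krt17 and Krt79) had a Present call on 1 or 2 arrays and 4 (Krt12, Krt28, Krt42 and Krt80) on 3 to 19. Krt10, a type I keratin of the upper epidermis, was Present on all 20 arrays at a mean log2 intensity of 8.29. Krt32 and Krt81, keratins of hair, were also called Present on all 20 arrays, yet their mean log2 intensities were 1.99 and 2.31, so that call and intensity differ for both.

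**Figure D1:**
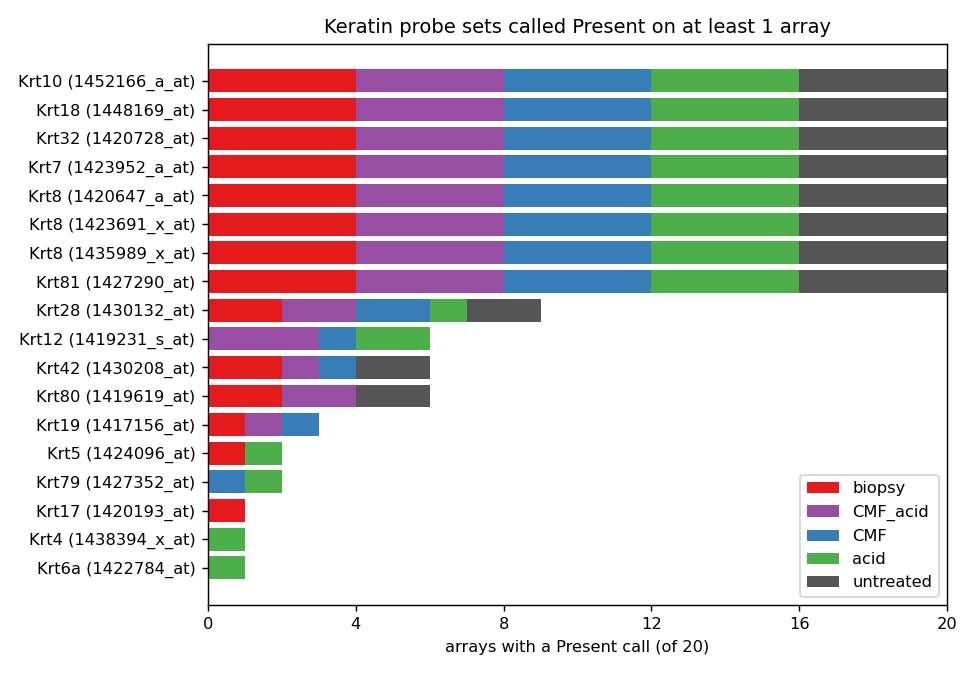
Number of arrays, of 20, on which each keratin probe set was called Present, on the x axis, for every keratin probe set with at least 1 such call, coloured by group of 4 arrays. Krt7, Krt18 and the 3 probe sets of Krt8 fill the whole bar, while Krt19 has 3 calls and none in the acid and untreated groups.

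Levels below are log2 of the GC-RMA intensity, a background-corrected and between-array normalized summary of each probe set's probes. They compare arrays for 1 probe set and not probe sets with each other, because probes differ in how strongly they bind.

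Krt8 differed little between the 20 arrays in each of its probe sets. Its mean intensities lay near the top of the array, where only 1.17% to 1.58% of tested probe sets had a higher mean, and those of Krt18 likewise at 1.67%. On 1423691_x_at, replicates 2 to 5 stood at 15.32, 15.26, 15.15 and 15.19 in biopsied embryos, at 15.33, 15.23, 15.15 and 15.13 in CMF_acid embryos and at 15.35, 15.26, 15.33 and 15.11 in CMF embryos. They stood at 15.32, 15.20, 15.32 and 15.20 in acid embryos and at 15.27, 15.28, 15.24 and 15.21 in untreated embryos. Every group overlapped every other, and the lowest and the highest array, both in the CMF group, were 1.18-fold apart. On 1420647_a_at the values were 15.01, 15.01, 14.82 and 14.97 in biopsied embryos, 15.05, 15.04, 14.99 and 15.16 in CMF_acid embryos, and 15.07, 15.02, 14.97 and 15.01 in untreated embryos. The CMF and acid groups spanned 14.92 to 15.10 and 14.91 to 15.13. Biopsy replicate 4 was the lowest array and CMF_acid replicate 5 the highest, 1.27-fold apart. On 1435989_x_at the biopsied embryos spanned 15.09 to 15.15, the CMF_acid embryos 15.12 to 15.31, the CMF embryos 15.06 to 15.23, the acid embryos 15.03 to 15.22 and the untreated embryos 15.12 to 15.20, where 15.31 was again CMF_acid replicate 5. By the array maker's naming, the ending _x_at marks probe sets in which some probes may also bind other sequences, so both such probe sets of Krt8 may include signal from near-identical copies.

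Krt7, the other type II chain, varied far more from pool to pool. Its values in replicates 2 to 5 were 8.79, 8.12, 8.31 and 9.0 in biopsied embryos, 8.74, 8.49, 7.48 and 8.04 in CMF_acid embryos and 8.51, 7.98, 9.07 and 8.50 in CMF embryos. In acid embryos they were 9.32, 8.52, 8.11 and 8.66, and in untreated embryos 8.04, 8.12, 8.77 and 8.58. The lowest array, CMF_acid replicate 4, and the highest, acid replicate 2, were 3.60-fold apart, and every group overlapped every other. The spread of Krt7 within groups, a residual SD of 0.459 log2, was larger than that of 93.6% of the 25553 tested probe sets, whose median was 0.203. That ranking took in probe sets of every intensity, with no matching to the level of Krt7. On the signal of the array maker's software Krt7 ran from 87.4 to 193.8. The residual SD was 0.0794, 0.0786 and 0.0688 log2 for the Krt8 probe sets 1420647_a_at, 1423691_x_at and 1435989_x_at, and 0.163 log2 for Krt18.

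Krt18, the type I partner of Krt8, had values of 15.13, 15.03, 14.89 and 14.77 in replicates 2 to 5 of the biopsied embryos. They were 15.17, 15.09, 14.85 and 14.93 in CMF_acid embryos and 15.07, 14.96, 15.10 and 14.70 in CMF embryos. They were 15.17, 14.85, 15.06 and 14.77 in acid embryos and 15.08, 14.94, 15.07 and 14.78 in untreated embryos. Replicate 5 was the lowest pool in 4 of the 5 groups and replicate 2 the highest in 4, while the groups themselves overlapped throughout. Krt19, the other type I chain, stood between 2.34 and 2.68 on every array but 2. The exceptions were CMF_acid replicate 3 at 3.06 and CMF replicate 4 at 4.02, both among the 3 arrays with a Present call, and its detection p-values ran from 0.011 to 0.83.

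**Figure D2:**
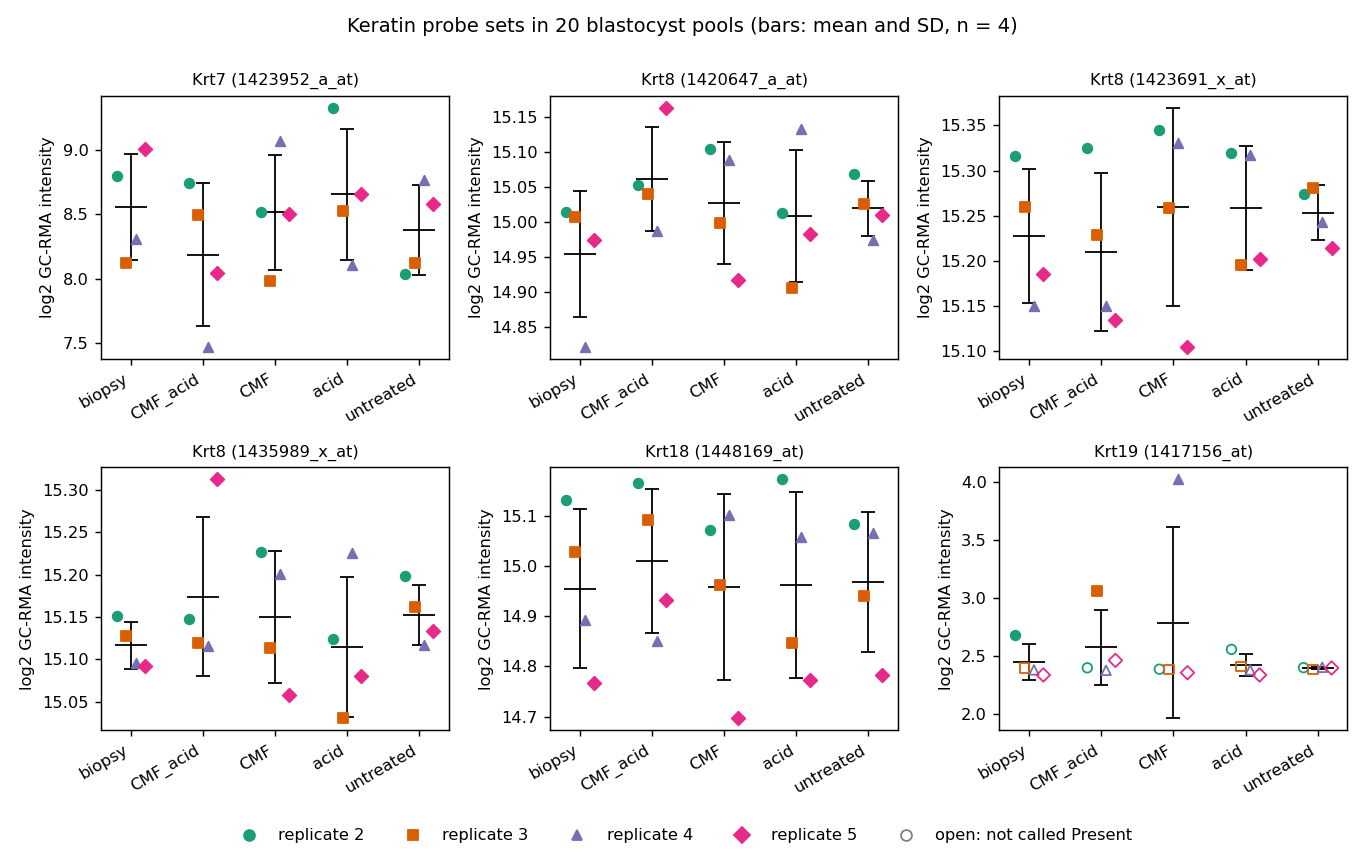
Log2 GC-RMA intensity (y axis, scaled separately in each panel) of the 6 keratin probe sets on 20 arrays in 5 groups of 4 (x axis), with 1 point per pool, marked by replicate number, bars for the mean and SD, and open points where the probe set was not called Present. Krt8 and Krt18 stay within a narrow band, Krt7 spans 7.48 to 9.32, and Krt19 lies near 2.4 apart from CMF_acid replicate 3 and CMF replicate 4.

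Biopsy against no treatment covers all steps of the procedure together. Krt7 averaged 8.56 ± 0.41 in biopsied and 8.38 ± 0.35 in untreated embryos (SD, n = 4 each), a difference of 0.18 ± 0.31 log2 (SE). Krt18 averaged 14.95 ± 0.16 in biopsied and 14.97 ± 0.14 in untreated embryos, a difference of -0.01 ± 0.11 log2, with a 95% confidence interval of -0.25 to 0.23. The Krt8 differences were -0.07 ± 0.06 on 1420647_a_at, -0.03 ± 0.06 on 1423691_x_at and -0.04 ± 0.05 log2 on 1435989_x_at. None of the 6 keratin probe sets was called by limma at an adjusted p under 0.05 (every adjusted p rounds to 1.0), nor was any of the 25553 probe sets tested, a background of 0%. Ordinary least squares also called 0, and at an unadjusted p under 0.05 limma had 535 probe sets (2.09%), with no keratin among them. As the RNA came from whole embryos, fewer trophectoderm cells and less keratin RNA per cell could not be told apart.

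Biopsied embryos were compared with CMF_acid embryos to set apart the removal of the blastomere. Krt7 averaged 8.56 ± 0.41 in biopsied and 8.19 ± 0.55 in CMF_acid embryos (SD, n = 4 each). The difference of 0.37 ± 0.31 log2 (SE), a 1.29-fold ratio, had a 95% confidence interval of -0.29 to 1.03 and a limma adjusted p of 0.662. Krt8 on 1420647_a_at averaged 14.95 ± 0.09 in biopsied and 15.06 ± 0.07 in CMF_acid embryos, and this difference of -0.11 ± 0.06 log2 had the lowest unadjusted limma p of any keratin and pairwise comparison, 0.0878 (adjusted p = 0.617). Without CMF_acid replicate 5 it was -0.07 log2. On 1423691_x_at the difference was 0.02 log2, and -0.01 without that pool, and on 1435989_x_at it was -0.06, and -0.01 without it. Krt18 differed by -0.05 ± 0.11 log2. Without that pool the difference was 0.32 log2 for Krt7 and -0.08 for Krt18. No keratin was called, and limma and ordinary least squares each called 0 of the 25553 probe sets (0%), with 1881 (7.36%) at an unadjusted limma p under 0.05 and none of these a keratin.

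Each exposure was compared with no treatment, with the same 4 untreated arrays in every comparison. Krt7 averaged 8.19 ± 0.55 in CMF_acid, 8.52 ± 0.44 in CMF and 8.65 ± 0.51 in acid embryos, against 8.38 ± 0.35 in untreated embryos (SD, n = 4 each). The differences from untreated were -0.19, 0.14 and 0.28 log2, each with an SE of 0.31. From high to low the Krt7 groups ran acid, biopsy, CMF, untreated and CMF_acid, and no neighbours in that order differed beyond their spread. Krt18 averaged 15.01 ± 0.14 in CMF_acid, 14.96 ± 0.18 in CMF and 14.96 ± 0.18 in acid embryos, against 14.97 ± 0.14 in untreated embryos. The differences of Krt18 were 0.04, -0.01 and -0.01 log2, each with an SE of 0.11. Without CMF_acid replicate 5 the CMF_acid difference was -0.14 log2 for Krt7 and 0.07 for Krt18. For Krt8 it went from 0.04 to 0.01 on 1420647_a_at, from -0.04 to -0.02 on 1423691_x_at and from 0.02 to -0.02 on 1435989_x_at. Krt8 on 1423691_x_at averaged 15.21 ± 0.09 in CMF_acid, 15.26 ± 0.11 in CMF and 15.26 ± 0.07 in acid embryos, against 15.25 ± 0.03 in untreated embryos. No keratin was called in any of these comparisons. Limma and ordinary least squares called 0 of 25553 probe sets (0%) in each, with 683 (2.67%) for CMF_acid, 258 (1.01%) for CMF and 296 (1.16%) for acid at an unadjusted limma p under 0.05, no keratin among them.

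The CMF by acid interaction, which is 0 where the effect of both exposures is the sum of the single ones, was -0.60 ± 0.44 log2 for Krt7 (SE), with a 95% confidence interval of -1.53 to 0.32 (limma adjusted p = 0.779, unadjusted p = 0.187). Without CMF_acid replicate 5 it was -0.56 log2. For Krt18 it was 0.06 ± 0.16 log2, and 0.08 without that pool. Limma and ordinary least squares called 0 probe sets (0%), no keratin among them, with 868 (3.40%) at an unadjusted limma p under 0.05. In the test of any difference among the 5 groups, the limma adjusted p of the keratins ran from 0.974 to 0.997, 0 probe sets were called by either tool (0%), and 462 (1.81%) had an unadjusted limma p under 0.05.

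The width of the intervals says how large a change these pools could still hold. Over the 5 pairwise comparisons, the 20 differences of Krt8 and Krt18 lay between -0.11 and 0.04 log2, and their 95% confidence intervals together spanned 0.816-fold to 1.21-fold. With the replicate number as a block they spanned 0.847-fold to 1.14-fold. Both spans are on the intensity scale, whose compression at these levels was not tested. For Krt7 the differences lay between 0.877-fold and 1.29-fold and the intervals spanned 0.556-fold to 2.04-fold. That span joins the intervals of 5 comparisons of 4 pools a group, each around its own estimate, and is not a limit of detection. Krt19 differed by -0.12 to 0.39 log2 in these fits, the upper value for CMF against untreated embryos and set by CMF replicate 4. Without that pool the CMF difference of Krt19 was -0.02 log2.

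**Figure D3:**
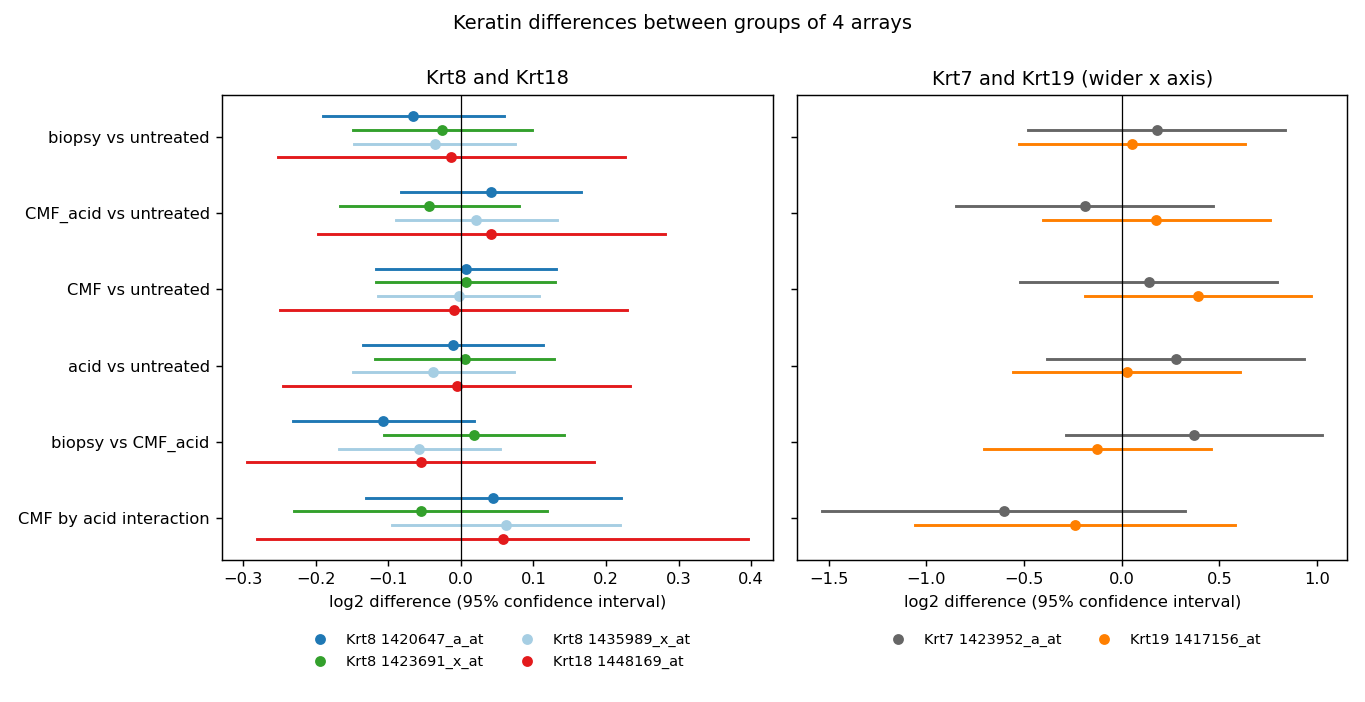
Log2 differences between groups of 4 arrays with 95% confidence intervals from limma (x axis) for each comparison (y axis), Krt8 and Krt18 in the left panel and Krt7 and Krt19 in the right panel on a wider axis. All intervals include 0, and those of Krt7 reach from -0.85 to 1.03 over the pairwise comparisons.

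Krt18 was called in no comparison between treatments but moved with the replicate number of the pools. It averaged 15.13 ± 0.05 in the pools numbered 2, 14.97 ± 0.09 in those numbered 3, 14.99 ± 0.11 in those numbered 4 and 14.79 ± 0.09 in those numbered 5 (SD, n = 5 each). The 5 pools numbered 2 lay between 15.07 and 15.17 and the 5 numbered 5 between 14.70 and 14.93, with no overlap. In all 5 groups the pool numbered 2 was above the pool numbered 5, by 0.33 ± 0.07 log2 on average (SD over 5 groups), a 1.26-fold ratio. In a fit with group and replicate number, limma's test of any difference among the 4 numbers called Krt18 (F = 9.52, adjusted p = 0.0380) and none of the other 5 keratin probe sets. Of all 25553 probe sets, 1056 (4.13%) were called in that test, and 636 (2.49%) by ordinary least squares, so that 1 of 6 keratin probe sets stands on a background at which many transcripts moved with the number. The call of Krt18 was near the threshold, with an adjusted p of 0.0542 by ordinary least squares, 0.0532 without the detection filter and 0.129 on the signal of the array maker's software. Leaving out 1 array at a time, it was called in 6 of 20 fits, at adjusted p-values from 0.0204 to 0.0881, and without CMF_acid replicate 5 its adjusted p was 0.0208.

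Krt8 on 1423691_x_at ran the same way over the numbers, with means of 15.32, 15.24, 15.24 and 15.17 for the numbers 2, 3, 4 and 5. Its pools numbered 2 lay between 15.27 and 15.35 and those numbered 5 between 15.11 and 15.21, without overlap, and the pool numbered 2 was higher in all 5 groups, by 0.15 ± 0.07 log2 (SD over 5 groups). This probe set had an unadjusted limma p of 0.0246, as 5383 (21.1%) of all probe sets had one under 0.05, and did not pass after adjustment (adjusted p = 0.165). Of all probe sets, 783 (3.06%) were higher in every pool numbered 2 than in every pool numbered 5, and 312 (1.22%) were lower. The Krt8 probe sets 1420647_a_at and 1435989_x_at and the probe sets of Krt7 and Krt19 overlapped between those numbers, with limma adjusted p-values of 0.688 to 0.923. Medians of RNA measures of the whole array also differed between the numbers, without a test. The median share of Present calls was 49.98%, 49.5%, 48.7% and 47.9% in the pools numbered 2, 3, 4 and 5, and the median actin ratio was 1.82, 2.03, 2.16 and 2.32. The part of these measures in the levels of Krt18 and Krt8 was not tested.

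**Figure D4:**
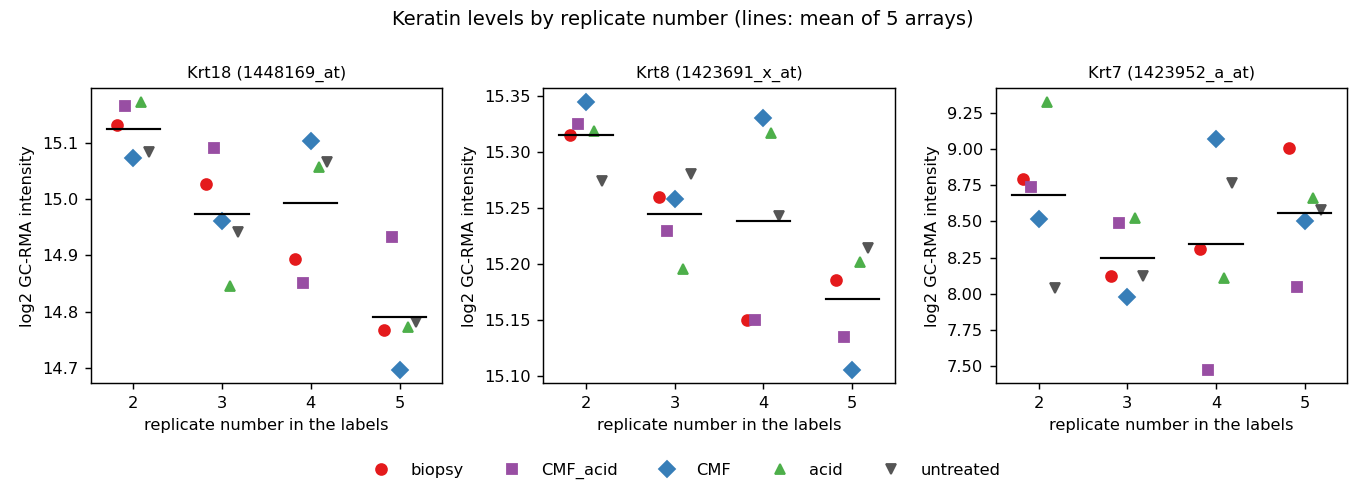
Log2 GC-RMA intensity (y axis) of Krt18, Krt8 (1423691_x_at) and Krt7 by the replicate number in the labels (x axis), with 1 point per pool coloured by group and lines for the mean of 5 pools. Krt18 averages 15.13 in the pools numbered 2 and 14.79 in those numbered 5 without overlap, while the Krt7 pools overlap.

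Other genes of the trophectoderm were called by the same test of the numbers, in which limma called 4.13% and ordinary least squares 2.49% of all probe sets. Of 19 tested regulators, 3 were called. Eomes, a T-box factor of trophoblast stem cells, averaged 12.01, 11.56, 11.75 and 11.44 in the pools numbered 2 to 5 (limma adjusted p = 0.0266). Ets2, a factor needed in trophoblast, averaged 7.93, 7.85, 7.51 and 7.20 (limma adjusted p = 0.0370). Tfap2c, an AP-2 factor of trophoblast, had its highest mean at number 4, with 14.78, 14.71, 14.97 and 14.63 (limma adjusted p = 0.0360). Of 17 other tested trophectoderm markers, 3 were called, and these shared the order of Krt18 at its ends. Ndrg1, a stress-responsive gene of trophoblast, averaged 12.83, 11.19, 11.88 and 10.66, the lipid carrier Fabp3 14.68, 14.53, 14.28 and 14.26, and the actin-bundling Lcp1 13.07, 12.49, 12.56 and 12.24 (limma adjusted p = 0.00414, 0.0118 and 0.0254). The summed intensity of those 17 markers includes the 3 called ones, so its order is not separate from their calls. The share of the 3 in it was not computed. Its medians were 196307, 184031, 184647 and 168279 in the pools numbered 2 to 5. It ranged from 191878 to 207294 at number 2 and from 152202 to 179042 at number 5. The sums of the 19 regulators did not share this order. Their highest median was 111437 at number 4, and they ranged from 105557 to 111704 at number 2 and from 98337 to 108441 at number 5, which overlap. The inner cell mass and epiblast markers, 3 of 19 called, did not share the order of the 17 markers either, with medians of their sums of 206393, 212751, 202929 and 207727. Pou5f1, a pluripotency factor, averaged 14.48, 14.62, 14.42 and 14.50 (limma adjusted p = 0.0476), with its highest mean at number 3. The other 2 called markers were highest at number 2 and lowest at number 3. Gdf3, a growth factor of the TGF-beta family, averaged 10.23, 9.89, 10.10 and 10.19, and Tdgf1, a co-receptor of Nodal, 11.93, 11.29, 11.58 and 11.43 (limma adjusted p = 0.0290 and 0.0449). How far these lists and the keratins moved through the same source was not tested.

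Krt8 and Krt18, the chains that pair in the filament, were compared array by array, each gene by its probe set with the highest mean. Over the 20 arrays Krt8 (1423691_x_at) and Krt18 had a Pearson r of 0.81 and a Spearman rho of 0.80. The permutation test of the r gave p = 5e-05 (adjusted p = 0.0003 over the 6 pairs of keratin genes). That test shuffled the 20 arrays as if each were independent, while many transcripts, Krt18 among them, moved with the replicate number. Its p-values may therefore be too small. Without the 2 arrays farthest from the median of Krt8 the r was 0.80, and without CMF_acid replicate 5 it was 0.84. It was 0.88 after the group means were removed, 0.70 after the means of group and replicate number were both removed, and 0.83 on the software signal. CMF replicate 5 was the lowest array for both genes. The other Krt8 probe sets had r with Krt18 of 0.49 for 1420647_a_at and 0.46 for 1435989_x_at. After the means of group and replicate number were removed these were 0.68 and 0.57, beside the 0.70 of 1423691_x_at, and whether the probe sets differ in this was not tested. The 3 Krt8 probe sets had r of 0.36 to 0.87 among themselves. The differences between arrays behind these values are small, within 1.18-fold for Krt8 (1423691_x_at) and 1.39-fold for Krt18, and the 2 summaries of the same array had an r of 0.97 for Krt18 but of 0.25, 0.82 and 0.68 for Krt8 on 1420647_a_at, 1423691_x_at and 1435989_x_at.

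**Figure D5:**
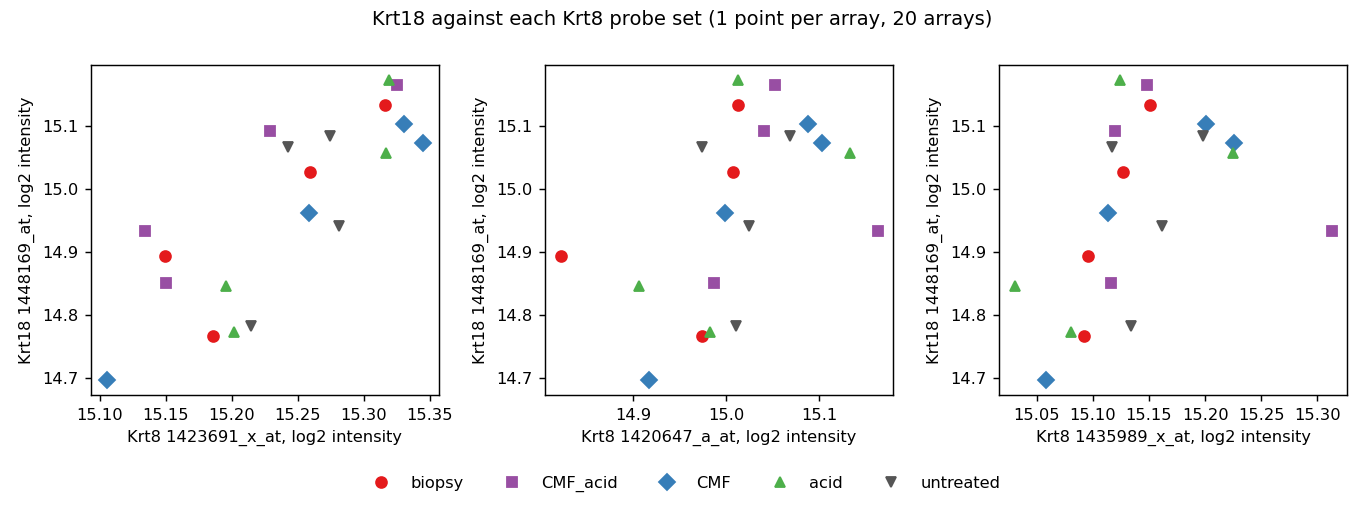
Log2 intensity of Krt18 (y axis) against that of each Krt8 probe set (x axis), 1 point per array and 20 arrays per panel, coloured by group. The r with Krt18 is 0.81 for 1423691_x_at and 0.49 and 0.46 for the other probe sets, and in the right panel CMF_acid replicate 5 lies far to the right.

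The other 5 pairs of keratin genes had Pearson r of 0.22 to 0.37 over the 20 arrays (permutation test, adjusted p of 0.206 to 0.347). After the means of group and replicate number were removed, 4 of these pairs had an adjusted permutation p under 0.05. That test shuffled the 20 deviations as if no means had been fitted to them. Its p-values are therefore too small and do not decide whether these pairs move together. The r was then 0.48 for Krt7 and Krt18, 0.64 for Krt7 and Krt19, 0.47 for Krt8 and Krt19 and 0.56 for Krt18 and Krt19 (permutation test, adjusted p of 0.0443, 0.00441, 0.0443 and 0.0217). By Spearman rho only Krt7 and Krt19 of these 4 were under 0.05 (0.60, permutation test, adjusted p = 0.0310), with the same limit. Over the 20 arrays as they stood, Krt7 had r of 0.34 with Krt8 and 0.22 with Krt18, and the second of these was -0.02 without the 2 arrays farthest from the median of Krt7. Krt18 and Krt19 had a Spearman rho of 0.71 (permutation test, adjusted p = 0.00216) beside a Pearson r of 0.37, with Krt19 undetected on 17 of these arrays. On the software signal the rho was 0.47 (permutation test, adjusted p = 0.1125). It was 0.50 after group means were removed and 0.49 after number means were removed too (permutation test, adjusted p of 0.0751 and 0.0603). Without the 2 arrays farthest from the Krt18 median it was 0.61, and without CMF_acid replicate 5 it was 0.75. Both kept an adjusted p under 0.05 by permutation test. These tests too shuffled arrays without regard to the replicate number.

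Among 9030 genes called Present on every array, those most like each keratin over the 20 arrays were ranked by Pearson r, as a description. For Krt8 (1423691_x_at) they were Tnrc6c (0.86), Slc22a5 (0.85), Slc39a14 (0.85), Emp2 (0.83) and Acsl6 (0.82). For Krt18 they were Cnpy2 (0.86), Capg (0.85), Slc22a5 (0.83), Fdft1 (0.83) and Nmnat1 (0.82). Slc22a5, a carnitine transporter, was in both sets. For Krt7 they were Tasor (0.77), Pygb (0.72), Cars (0.70), Syne1 (0.68) and Wnt9a (0.66). On the software signal 1 of the 5 genes stayed among the first 5 for Krt8, 1 for Krt7 and 2 for Krt18, so that most of these names depend on how the probes were summarised. The arrays share the replicate numbers, with which the levels of many genes moved, and no function is read from the likeness. For Krt19 the first was Oosp1 (0.89), with a Spearman rho of 0.49 and an r of 0.16 on the software signal, and 0 of its 5 genes stayed.

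Genes that work with keratins were followed for the same comparisons. Of 18 genes for desmosomes, plakins and other partners of keratin filaments, 17 were tested and 0 were called in any comparison. For biopsy against untreated embryos 10 were higher and 7 lower, with a median of 0.02 log2 beside 0.007 over all probe sets, of which 58.5% were higher. Dsp, the desmoplakin that ties keratin filaments to desmosomes, differed by 0.11 ± 0.11 log2 (SE). For biopsy against CMF_acid embryos the median was 0.03 log2, beside -0.009 over all, and Jup, the plakoglobin of desmosomes and adherens junctions, differed by -0.39 ± 0.22 log2 (limma adjusted p = 0.617). Jup averaged 8.94 ± 0.17 in biopsied and 9.33 ± 0.37 in CMF_acid embryos (SD, n = 4 each). Without CMF_acid replicate 5, the highest pool of its group for Jup, the difference was -0.22 ± 0.22 log2.

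Of 15 other intermediate filament genes 9 were tested, and 0 were called in any comparison. Vim, the vimentin of mesenchymal filaments, averaged 7.72 ± 0.58 in biopsied, 8.41 ± 0.57 in CMF_acid and 8.61 ± 0.30 in untreated embryos (SD, n = 4 each). It differed by -0.89 ± 0.32 log2 (SE) between biopsied and untreated embryos, with an unadjusted limma p of 0.0127 and an adjusted p of 1.0. Against the same untreated arrays, Vim also differed by -0.47 log2 in CMF, -0.61 in acid and -0.20 in CMF_acid embryos. Between biopsied and CMF_acid embryos it differed by -0.69 log2, and by -0.41 without CMF_acid replicate 5. Lmna, the lamin A of the nuclear envelope, differed by -0.40 ± 0.16 log2 between biopsied and CMF_acid embryos (limma adjusted p = 0.617), and by -0.27 ± 0.16 log2 without CMF_acid replicate 5. The median over the 9 genes was 0.02 log2 for biopsy against untreated embryos. Of the 7 tested keratins outside the 4 described, 0 were called, and Krt10 differed by 0.15 ± 0.17 log2 between biopsied and untreated embryos.

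The regulators and markers of the trophectoderm likewise had 0 of 19 and 0 of 17 members called in every comparison between treatments. For biopsy against untreated embryos the regulators had a median of 0.03 log2, with 12 higher and 7 lower, and the other markers a median of -0.07 log2, with 6 higher and 11 lower. Over all probe sets the median was 0.007 log2 and 58.5% were higher. Cdx2, the caudal factor that specifies trophectoderm, differed by 0.16 ± 0.12 log2 (SE). Aqp3, a water channel of the trophectoderm, averaged 11.46 ± 0.23 in biopsied and 11.83 ± 0.15 in untreated embryos (SD, n = 4 each). Its difference of -0.36 ± 0.11 log2 had an unadjusted limma p of 0.00448 and an adjusted p of 1.0. Against the same untreated arrays, Aqp3 also differed by -0.26 log2 in CMF_acid, -0.20 in CMF and -0.20 in acid embryos. Klf5, a factor active in trophectoderm, differed by -0.22 ± 0.08 log2 between biopsied and CMF_acid embryos (limma adjusted p = 0.617), and by -0.14 ± 0.07 log2 without CMF_acid replicate 5. The summed intensity of the 17 other trophectoderm markers ranged from 162014 to 200377 in biopsied, 152202 to 195991 in CMF_acid, 168279 to 196307 in CMF, 167994 to 207294 in acid and 177964 to 192215 in untreated embryos, with every group overlapping every other.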

How the data were processed

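The deposited series table holds 1 intensity per probe set and array, which the authors made with GC-RMA in ArrayAssist Lite 3.4, per the series design text, and left on the linear scale. The deposited array tables hold, per the file headers, the scaled signal intensity of the array maker's software with its detection call and the p-value of that call. The authors took log2 only afterwards, in GeneSpring 7.31 and Partek Genomics Suite 6.3, per the same text; log2 was therefore taken here. Of 45101 probe sets, 64 controls were left out and 25553 called Present on 3 or more of 20 arrays were tested, the study's own filter. The platform annotation gave 34958 probe sets a single symbol and 932 several, did not list 9211, and 34754 were updated by gene number. All 20 arrays entered 1 fit in limma 3.58.1 (R 4.3.3; lmFit, eBayes, 5 group means), two-sided, with Benjamini-Hochberg adjustment within a comparison and calls at an adjusted p under 0.05. The replicate number was tested in a fit with group and number. Correlations used 100000 permutations, which shuffled the arrays without regard to the replicate number. Lists took 1 probe set a gene, that with the highest mean, and at most 4 members, those of lowest p, were named per comparison; the 5 genes of highest Pearson r were named for likeness. The scripts were tested on simulated data. The members and lists were chosen with earlier results of these data known. Alternatives were the software signal, other normalization, filter, pseudocount, array weights, ordinary least squares, the groups compared alone, each array left out and the replicate block; those on the replicate number, the blocked intervals and the list members without CMF_acid replicate 5 were chosen after seeing the data. Same-numbered pools of different groups deviated together (r of -0.09 to 0.40, median 0.20, over 40 pairs, against a median of -0.07 over 120 differently numbered pairs). For all 20 arrays, the closest array of another group had the same number. Only acid against untreated embryos had all 4 pairs over 0.1, the rule for taking the pools as paired, and each other comparison had 3. The main fit did not pair the pools, so its errors are those of unpaired groups. Intervals with the replicate block are given only as the joined span of Krt8 and Krt18. The number of arrays limits the precision.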

Additional observations from a re-analysis of the deposited data

Results flagged for a closer look

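In 3 of the 30 sets of 4 arrays (6 probe sets in 5 groups), the highest array lay so far from the other 3 that its gap, as a share of the whole range, passed the 95% critical value of Dixon's test, which chance gives in about 1 of 20 such sets. Krt8 on 1435989_x_at was 15.31 in CMF_acid replicate 5, the array with the actin ratio of 4.22, against 15.12 to 15.15 in the other CMF_acid pools. Krt19 was 3.06 in CMF_acid replicate 3, against 2.38 to 2.46 in the others of that group. Krt19 was 4.02 in CMF replicate 4, against 2.36 to 2.39 in the other CMF pools.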

How the results depend on the processing

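The 36 log2 differences of the 6 keratin probe sets were recomputed under other settings apart from leaving out an array, 318 values in all, and 0 were called. The lowest limma adjusted p of any keratin difference under any setting run, arrays left out included, was 0.362. Of these values 20 had the opposite sign, at most 0.0938 log2 in size, and the cause was not tested. On the software signal biopsy against untreated gave 0.00513 for Krt8 1420647_a_at, 0.00903 for Krt8 1435989_x_at, 0.0281 for Krt18 and -0.0719 for Krt19. The same signal, for CMF against untreated, gave -0.00224 for Krt8 1423691_x_at, 0.00756 for Krt8 1435989_x_at and 0.0186 for Krt18. For acid against untreated it gave 0.0272 for Krt8 1420647_a_at, -0.00494 for Krt8 1423691_x_at, 0.0128 for Krt18 and -0.00368 for Krt19. For CMF_acid against untreated it gave 0.0938 for Krt7 and -0.00435 for Krt19. For biopsy against CMF_acid it gave 0.00534 for Krt8 1435989_x_at. The CMF by acid interaction on it was -0.00159 for Krt8 1435989_x_at. With array weights the values were 0.0206 for Krt18 in biopsy against untreated, 0.000551 for Krt8 1435989_x_at in CMF against untreated, -0.0212 for Krt8 1435989_x_at in CMF_acid against untreated and 0.00858 for Krt18 in biopsy against CMF_acid. With quantile normalization Krt8 1435989_x_at in CMF against untreated was 0.00175. The replicate block, ordinary least squares and the groups compared alone leave these differences unchanged in this balanced design. So do no detection filter and Present calls on all 20 arrays. These settings therefore could not turn a sign. Of the 20 turned signs, 15 were on the software signal, and the pseudocount turned 0.

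Leaving out 1 array at a time gave 720 values, 42 with the opposite sign and 0 called. Leaving out an array of a group outside a comparison cannot change its difference, so many of these values could not turn. Without any 1 array, 0 to 1 probe sets of the whole table were called in each comparison between treatments and in the test among groups. The exception was biopsy against CMF_acid, with 0, and 0 keratins were called in each. The ranges were -0.0549 to 0.000429 for Krt8 1423691_x_at, -0.0752 to 0.0495 for Krt18 and -0.0245 to 0.0908 for Krt19 in biopsy against untreated. The ranges were -0.0458 to 0.317 for Krt7, -0.0182 to 0.044 for Krt8 1420647_a_at, -0.0219 to 0.0582 for Krt8 1423691_x_at, -0.0284 to 0.0275 for Krt8 1435989_x_at, -0.0719 to 0.0772 for Krt18 and -0.0200 to 0.535 for Krt19 in CMF against untreated. The ranges were -0.0524 to 0.0233 for Krt8 1420647_a_at, -0.015 to 0.0261 for Krt8 1423691_x_at, -0.076 to 0.0571 for Krt18 and -0.0203 to 0.0531 for Krt19 in acid against untreated. The ranges were -0.374 to 0.0475 for Krt7, -0.0249 to 0.0406 for Krt8 1435989_x_at and -0.0202 to 0.0949 for Krt18 in CMF_acid against untreated. The ranges were -0.0114 to 0.0564 for Krt8 1423691_x_at, -0.114 to 0.00769 for Krt18 and -0.202 to 0.0366 for Krt19 in biopsy against CMF_acid. The ranges were -0.0297 to 0.128 for Krt18 and -0.400 to 0.173 for Krt19 in the CMF by acid interaction.

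In the test of the replicate number, 1056 probe sets were called. The count was 201 on the software signal, 675 without the detection filter, 636 by ordinary least squares and 3418 with array weights. Without 1 array it ran from 534 to 2394, the highest without CMF_acid replicate 5. The call of Krt18, the 1 keratin called, was lost on the software signal, without the filter and by ordinary least squares, where 0 keratins were called (adjusted p of 0.129, 0.0532 and 0.0542), and without 1 array 0 to 1 keratins were called. In the replicate block the calls of the keratin differences were the same as without it, and their signs could not change in this balanced design. In the pairing by number only acid against untreated embryos met the rule for paired pools. After the block the keratin correlations were 0.481 for Krt7 and Krt18, 0.636 for Krt7 and Krt19, 0.465 for Krt8 and Krt19 and 0.557 for Krt18 and Krt19 (permutation test, adjusted p of 0.0443, 0.00441, 0.0443 and 0.0217). Without the block the Pearson r of these pairs missed the threshold. The Spearman rho of Krt18 and Krt19 passed it there (permutation test, adjusted p = 0.00216). The p-values after the block are too small, because the test shuffled deviations as if no means had been fitted to them. Krt19 was mostly undetected. Without the 2 arrays farthest from the median of Krt7, Krt7 and Krt18 had an r of -0.0227. Intervals widen with the spread of 4 pools a group, and Krt19 lies at the floor of the arrays.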

Other observations

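Markers of the primitive endoderm, the epithelium that lines the cavity and whose later derivatives also make Krt8 and Krt18, had 0 of 21 tested members called by limma in each comparison between treatments. For biopsy against untreated embryos 17 were lower and 4 higher, with a median of -0.23 log2 beside 0.007 over all probe sets, of which 58.5% were higher. An unadjusted limma p under 0.05 was found for 4 of the 21, and for 535 (2.09%) of all probe sets. Col4a1, a basement membrane collagen, differed by -0.34 ± 0.12 log2 there and Cubn, an endocytic receptor, by -0.66 ± 0.20 (SE, n = 4 each; limma adjusted p = 1.0 for both). Sox17, an endoderm factor, was the 1 of 21 members called in the test of the replicate number, which called 4.13% of all probe sets, with means of 7.34, 5.46, 6.50 and 6.07 in the pools numbered 2 to 5 (limma adjusted p = 0.0387). Of the inner cell mass and epiblast markers, 0 of 19 were called between treatments, with a median of -0.06 log2 for biopsy against untreated embryos. Of the 6 tested markers of cumulus and granulosa cells, 0 were called, with a median of 0.009 log2. Their summed intensity ranged from 11845 to 12938 in biopsied and 10349 to 12160 in untreated embryos, but 89.6% to 95.9% of it on each array came from Nr5a2, a nuclear receptor that the embryo also expresses.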
